A study of Mus musculus with 26 samples.

Results

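The 10 genes Egr1, Egr2, Egr3, Nr4a1, Ier2, Ier3, Ier5, Phlda1, Plaur and Btg2 belong to the immediate-early and early growth response genes, and all 10 were found by symbol, ignoring case, among the 55391 genes of the deposited counts table. RNA-seq counts came from EA1, EA2 and EA3, which are murine lung cancer lines driven by an EML4-ALK fusion and isolated from C57BL/6 mice. Each line was cultured with 0.1% DMSO as control or with 100 nM alectinib, an ALK kinase inhibitor, for 1, 2, 3 or 5 days. These days are those of the sample labels, while the general treatment note names days 1, 3, 5 and 7, which bears on every slope over days below. A single library was made for each combination, 24 in all, so that the 4 days served as replicates (n = 4 per group). P values of the alectinib effect measured the spread between days of the difference from DMSO, estimated over all lines together. Those of slopes over days measured the scatter about a fitted line. None measured the spread between repeat cultures of the same day. All groups carry the fusion.

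Immediate-early genes are transcribed within minutes of growth factor signalling without new protein synthesis. ERK phosphorylates ternary complex factors of the ETS family, which act with serum response factor at CArG boxes, and CREB acts at cAMP response elements. Their mRNAs are short-lived, so their level follows the activity of the pathway, and an oncogenic kinase such as EML4-ALK feeds into it through RAS and ERK. Egr1, Egr2 and Egr3 encode zinc finger transcription factors, Nr4a1 an orphan nuclear receptor, Ier2 and Ier5 nuclear regulators of transcription, Ier3 a survival protein, Phlda1 a pleckstrin homology domain protein, Plaur the urokinase receptor and Btg2 an antiproliferative partner of the CCR4-NOT deadenylase.

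Promoters are shown for 2 genes that fell with alectinib in at least 2 lines (Egr2 and Nr4a1), for Plaur, which fell in EA1, and for Btg2, which passed the test in no line. The RefSeq promoter table (GRCm38.p6) held an entry for 6 of the 10 genes, namely these and Ier3 and Ier5. Each line gives the 250 bases before a transcription start, 5′ to 3′ on the gene's strand, and capitals mark CArG boxes, TGACG (which also lies within the full cAMP response element TGACGTCA), CCGGAA of the ETS family, GCGNGGGCG of the EGR family and TGACTCA of AP-1, each searched on both strands. The Egr2 sequence is chr10:67537619-67537868, that of Nr4a1 is chr15:101266596-101266845, that of Plaur is chr7:24462233-24462482 and that of Btg2 is chr1:134079156-134079405 on the minus strand.
Egr2: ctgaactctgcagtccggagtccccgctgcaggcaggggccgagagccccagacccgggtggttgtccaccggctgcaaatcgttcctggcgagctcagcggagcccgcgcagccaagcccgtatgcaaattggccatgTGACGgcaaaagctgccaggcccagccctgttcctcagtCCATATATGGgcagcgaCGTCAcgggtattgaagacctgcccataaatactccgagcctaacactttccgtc
Nr4a1: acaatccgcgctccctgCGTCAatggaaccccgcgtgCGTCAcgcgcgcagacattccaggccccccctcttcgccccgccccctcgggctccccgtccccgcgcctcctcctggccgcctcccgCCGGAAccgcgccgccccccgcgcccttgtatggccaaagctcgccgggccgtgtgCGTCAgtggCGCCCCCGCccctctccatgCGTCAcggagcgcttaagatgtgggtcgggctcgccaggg
Plaur: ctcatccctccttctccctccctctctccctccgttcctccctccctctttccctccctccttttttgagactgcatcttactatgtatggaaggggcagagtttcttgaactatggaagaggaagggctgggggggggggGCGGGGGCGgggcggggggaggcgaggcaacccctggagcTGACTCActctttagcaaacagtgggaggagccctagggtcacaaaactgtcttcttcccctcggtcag
Btg2: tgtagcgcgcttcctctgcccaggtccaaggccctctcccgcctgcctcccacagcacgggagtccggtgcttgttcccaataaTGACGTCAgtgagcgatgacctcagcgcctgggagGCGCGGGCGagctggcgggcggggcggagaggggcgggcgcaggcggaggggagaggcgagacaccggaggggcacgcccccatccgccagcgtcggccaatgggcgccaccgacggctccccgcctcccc

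Egr2 had a CArG box 72 to 63 bases before this start and TGACG on either side of it. Another RefSeq start of Egr2, with the window chr10:67537316-67537615, held a different CArG box, also 72 to 63 bases before the start, and 3 matches to CCGGAA, 2 of which overlap each other. The Nr4a1 window held 4 copies of TGACG on the reverse strand, CCGGAA and an EGR match. Btg2 had the full TGACGTCA 166 to 159 bases before its start and an EGR match, and Plaur had an EGR match and TGACTCA. The windows of Ier3 and Ier5 held none of these letters, nor did the 250 bases before the most upstream of the 5 RefSeq starts of Egr2 (chr10:67535249-67535498). Among all 32851 windows of 300 bases in the table, 1.63% held a CArG box, 1.79% TGACGTCA, 20.8% TGACG, 14.9% CCGGAA, 5.55% the EGR letters and 5.2% TGACTCA.

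Library totals ranged from 5780062 to 11732401 counts, with a median of 9252878. The libraries matched the labels of an epithelial tumor line in Krt18, at 235 CPM (a gene's counts scaled to the same total in every library) or more in all 24, while Epcam reached at most 7.6 CPM in EA1 and EA2. Where a marker falls, fewer cells of a type and less RNA per cell cannot be told apart in bulk RNA. The summed CPM of 5 fibroblast markers was higher with alectinib in every line. The EA1 sums were 8.76 to 44.1 in DMSO and 81.2 to 218 with alectinib, those of EA2 56.4 to 71 and 117 to 240, and those of EA3 10.3 to 20.4 and 84.4 to 247. Different markers carried the sum, chiefly Pdgfrb in EA1 (67.3 to 149 CPM with alectinib) and Col1a1 in EA3 (77.9 to 179 CPM). Col1a2 was at 0 in all DMSO libraries of EA1. In EA2 Dcn ranges overlapped, at 37.5 to 54.3 CPM in DMSO and 32.1 to 165 CPM with alectinib. Pdgfra there was at 0 to 0.6 and 0 to 0.199 CPM. Sums of 4 hematopoietic and 3 endothelial markers were 1.5 to 94.7 CPM and 0.173 to 9.17 CPM over all groups. Of the hematopoietic markers Cd68 reached 92.7 CPM, while Csf1r reached at most 6.79, Ptprc 0.36 and Cd3e 0.167 CPM. The summed level of 4 epithelial markers was 4070 to 7080 CPM in DMSO and 2390 to 4260 CPM with alectinib for EA1, 1600 to 2310 and 448 to 867 CPM for EA2, and 3340 to 4810 and 2220 to 4650 CPM for EA3. Not all of these markers followed the sum. Cdh1 in EA2 was at 44.1 to 96.7 CPM in DMSO and 144 to 272 CPM with alectinib, and Epcam in EA1 at 0.337 to 3.31 and 4.64 to 7.6 CPM, both without overlap. Cdh1 ranges overlapped in EA1, at 440 to 700 and 567 to 780 CPM, and in EA3, at 599 to 705 and 644 to 1280 CPM. The part of these shifts in the values below was not tested. The 2 libraries labelled EA3 at day 7 correlated with EA2 libraries of the same treatment (Pearson's r across genes 0.942 to 0.988) more than with EA3 libraries (0.852 to 0.889). They were kept out of the tests, except in an alternative with all 26 libraries, which entered them as EA3. The 5 genes that report MAPK activity, Etv4, Etv5, Dusp6, Spry2 and Spry4, were lower with alectinib in all 3 lines.

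In DMSO cultures the 10 genes differed widely in level. Per kilobase of exon, Ier3 was the highest in every line, at 321 ± 226 CPM per kilobase in EA1, 197 ± 77.0 in EA2 and 1133 ± 759 in EA3 (mean ± SD, n = 4 days). By mean, Ier2, Plaur and Phlda1 followed in this order in each line. Ier2 and Plaur were apart by less than the larger of their SDs in all 3 lines, at 101 ± 35.0 and 97.5 ± 55.2 CPM per kilobase in EA1, and so were Ier3 and Ier2 in EA1. Phlda1 was not apart from the gene below it in EA2, where it had 32.8 ± 6.94 and Egr1 31.5 ± 41.7 CPM per kilobase, nor in EA3, where it had 27.8 ± 9.52 and Ier5 26.5 ± 4.35. Egr2 had the lowest mean, at 1.84 ± 0.850, 1.72 ± 2.41 and 1.91 ± 2.19 CPM per kilobase for EA1, EA2 and EA3, and Egr3 came next, at 8.45 ± 2.53, 2.58 ± 1.75 and 1.92 ± 2.00. These 2 genes were level in EA3 and within their SD in EA2.

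**Figure D1:**
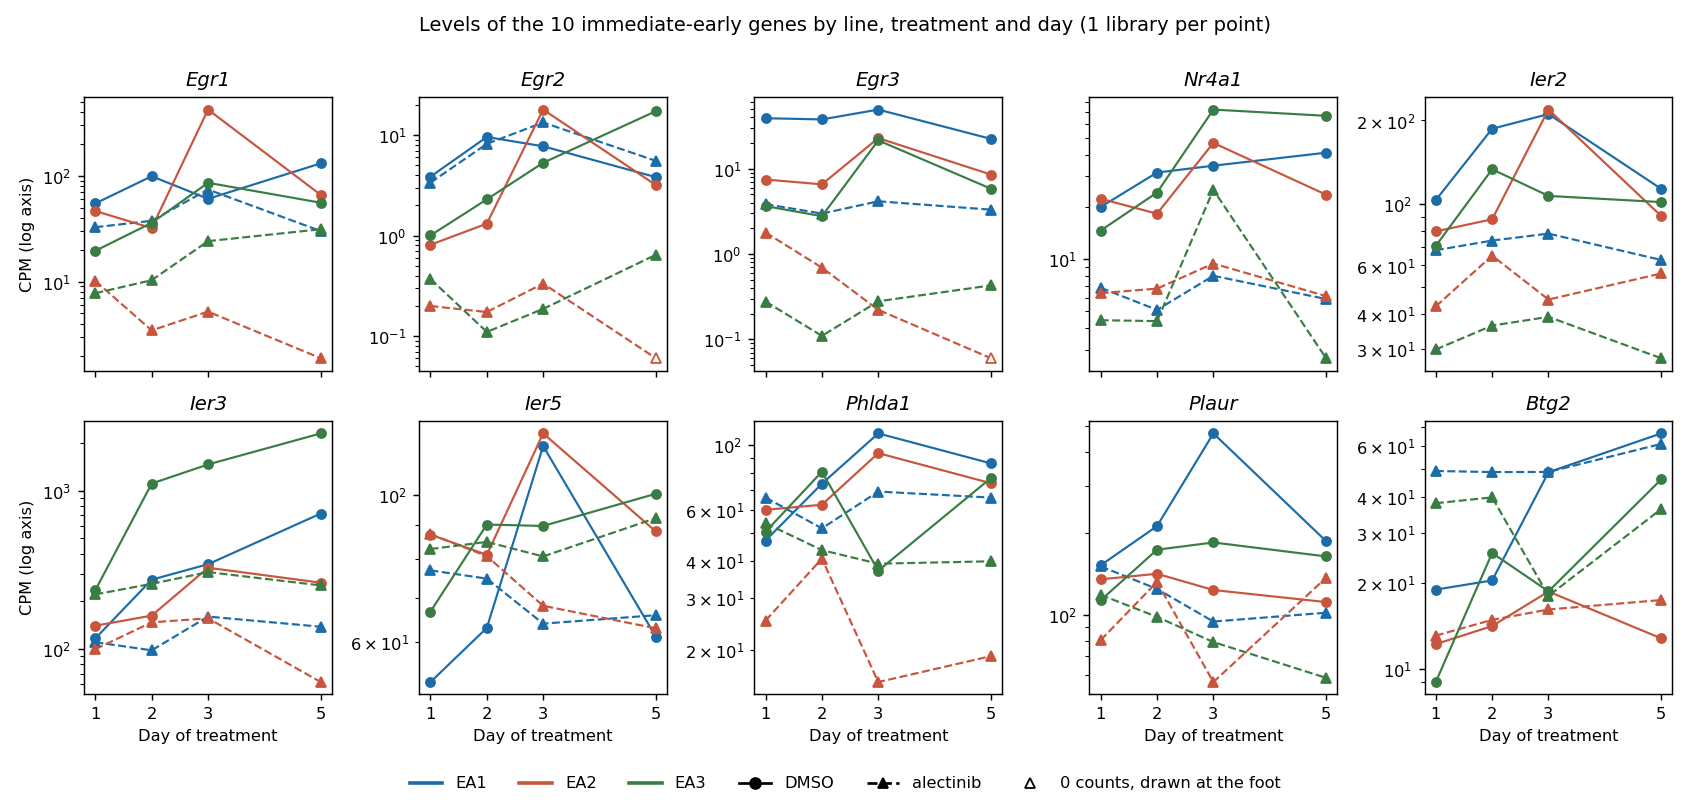
CPM on log axes for each gene against the day of treatment, 1 library per point, with lines coloured by cell line, solid for DMSO and dashed for alectinib; open symbols are libraries with 0 counts, drawn at the foot of the axis. The dashed curves of Egr3 and Ier2 lie below the solid curves of the same line on every day, while those of Ier5 and Btg2 cross them.

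Alectinib lowered 4 of the 10 genes in EA1, where 15.8% of all genes tested were called lower, 6 in EA2, where 11.3% were, and 5 in EA3, where 15.8% were. None was called higher in any line by edgeR, by DESeq2 or at an unadjusted p under 0.05, where 18%, 13% and 16.5% of all genes were called higher in edgeR. Egr3, Nr4a1 and Ier2 fell in all 3 lines, as 4.42% of all genes did. Egr2 fell in EA2 and EA3, Egr1 and Phlda1 in EA2, Plaur in EA1 and Ier3 in EA3, while Ier5 and Btg2 passed the test nowhere. Some of these calls lay near the threshold. Over 15 alternatives, Egr1 passed in 2 in EA1 and in 6 in EA3. Ier3 passed in 6 in EA1 and in 1 in EA2, and Plaur in EA3 in 7. Plaur in EA1 failed in 6 and Ier3 in EA3 in 1. Over the 10 genes, the EA1, EA2 and EA3 medians of the log2 fold change were -0.99, -1.33 and -1.53, while over all 14264 genes tested they lay within 0.037 of 0. A gene was called at an adjusted p under 0.05 from edgeR's quasi-likelihood test, in a model with 12 blocks (a line on a day) and 1 alectinib effect per line, adjusted over all 14264 genes by Benjamini-Hochberg. Lists of CPM below are in the order of days 1, 2, 3 and 5.

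**Figure D2:**
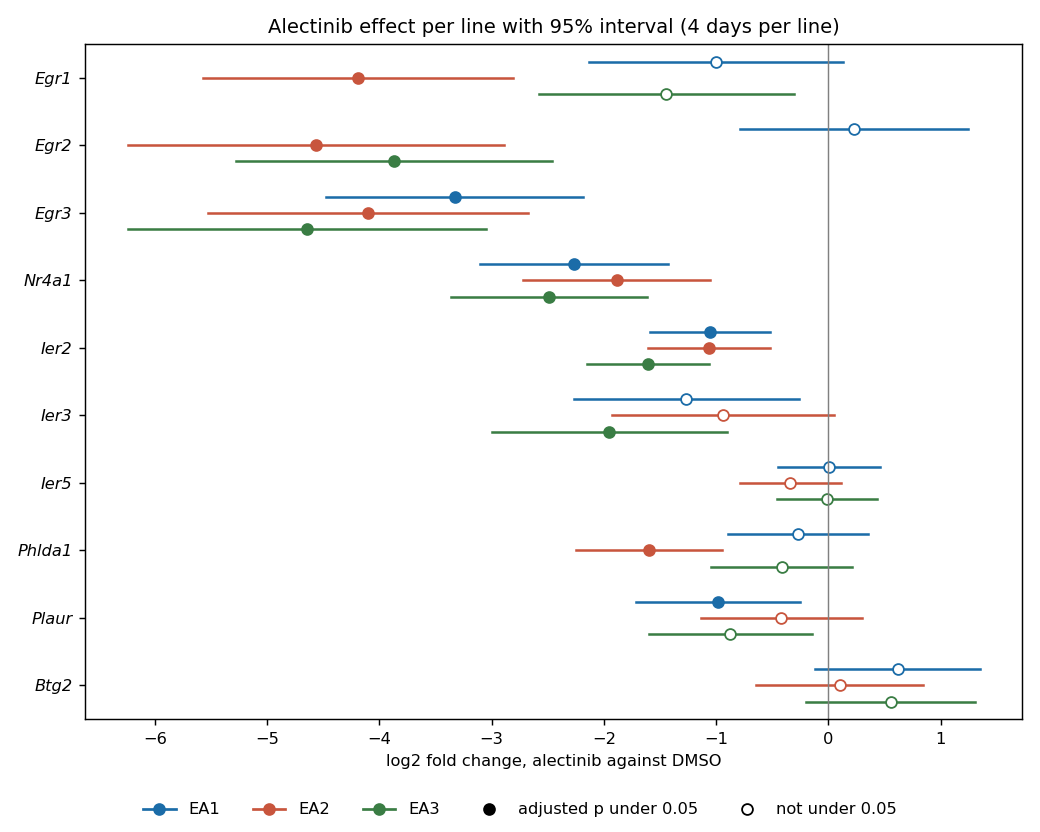
Log2 fold change of alectinib against DMSO on the x axis, with its 95% interval, for each gene and line; filled points had an adjusted p under 0.05. They are all to the left of 0, from -0.98 for Plaur in EA1 to -4.64 for Egr3 in EA3, and the interval of Egr2 in EA1 spans 0.

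Egr3 (chr14:70077203-70082614), which encodes an EGR family transcription factor, had the largest fall in EA1 and EA3. In EA1 it measured 39.1, 37.9, 49.4 and 22.4 CPM in DMSO and 3.85, 2.98, 4.16 and 3.31 CPM with alectinib. In EA2 the values were 7.48, 6.57, 22.9 and 8.55 CPM in DMSO and 1.79, 0.692, 0.222 and 0 CPM with alectinib. In EA3 they were 3.65, 2.78, 21.5 and 5.84 CPM and 0.277, 0.110, 0.279 and 0.429 CPM. Every alectinib library was below every DMSO library of its line. On the log2 scale the fold change in EA1 was -3.33 ± 0.53 (SE, 95% interval -4.47 to -2.19, adjusted p = 0.00048), or 10.1-fold lower. EA2 had -4.10 ± 0.66 (SE, 95% interval -5.53 to -2.68, adjusted p = 0.000549). EA3 had -4.64 ± 0.74 (SE, 95% interval -6.24 to -3.05, adjusted p = 0.000429). Few reads stood behind the low levels, since the alectinib libraries held 18, 4, 2 and 0 counts in EA2 and 3, 1, 3 and 4 in EA3, against 40, 24, 41 and 40 in EA1.

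Nr4a1 (chr15:101254269-101274795), which encodes the nuclear receptor NUR77, fell in all lines. In EA1 it was at 19.9, 31.5, 34.5 and 41.0 CPM in DMSO and 6.83, 5.09, 8.01 and 5.88 CPM with alectinib. EA2 libraries held 22.2, 18.3, 46.7 and 23.5 CPM in DMSO and 6.36, 6.75, 9.42 and 6.12 CPM with alectinib. In EA3 the DMSO values were 14.6, 24.2, 72.6 and 66.9 CPM and the alectinib values 4.44, 4.39, 25.0 and 2.68 CPM. The groups did not overlap in EA1 and EA2. In EA3 the day 3 alectinib library, at 25.0 CPM, lay above 2 DMSO libraries, though below the DMSO library of its own day. For EA1 the log2 fold change was -2.27 ± 0.39 (SE, 95% interval -3.11 to -1.43, adjusted p = 0.000798). That in EA2 was -1.89 ± 0.39 (SE, 95% interval -2.72 to -1.05, adjusted p = 0.00312), and that in EA3 was -2.49 ± 0.41 (SE, 95% interval -3.36 to -1.61, adjusted p = 0.000553). The daily log2 ratio in EA3 was -4.53 on day 5 and between -1.53 and -2.40 on the other days. Over alternatives the fold change in EA3 ranged from -2.88 to -1.85.

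Ier2 (chr8:84661331-84662852), which encodes a small nuclear protein, had the smallest fall of these 3 genes in each line. DMSO cultures of EA1 measured 103, 187, 211 and 113 CPM and alectinib cultures 68.1, 73.8, 78.2 and 62.8 CPM. For EA2 these were 79.6, 88.1, 219 and 90.5 CPM and 42.7, 65.1, 45.2 and 56.1 CPM. For EA3 they were 70.6, 133, 107 and 102 CPM and 29.9, 36.4, 39.2 and 27.8 CPM. No alectinib library reached the lowest DMSO library of its line. Log2 fold changes were -1.06 ± 0.25 (SE, 95% interval -1.59 to -0.52, adjusted p = 0.00557) for EA1, -1.06 ± 0.25 (SE, 95% interval -1.61 to -0.52, adjusted p = 0.00765) for EA2 and -1.61 ± 0.25 (SE, 95% interval -2.15 to -1.06, adjusted p = 0.000425) for EA3. Groups did not overlap, with alectinib lower, for 4 of the 10 genes in EA1, 6 in EA2 and 3 in EA3, beside 13.8%, 12.6% and 11.4% of all genes.

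Egr1, on chromosome 18, encodes the best studied EGR factor. In EA1 it measured 54.7, 98.8, 60.4 and 131 CPM in DMSO and 32.6, 37.5, 74.0 and 30.0 CPM with alectinib, and the groups overlapped. In EA2 it measured 46.4, 32.0, 421 and 65.8 CPM in DMSO and 10.1, 3.46, 5.21 and 1.89 CPM with alectinib. In EA3 it measured 19.5, 35.9, 85.6 and 55.5 CPM and 7.77, 10.3, 24.1 and 31.2 CPM, again with overlap. Only in EA2 were all alectinib libraries below all DMSO libraries. There the log2 fold change was -4.19 ± 0.64 (SE, 95% interval -5.57 to -2.81, adjusted p = 0.00045), or 18.3-fold lower. Neither EA1, with -0.9976 ± 0.52 (SE, 95% interval -2.13 to 0.13, adjusted p = 0.158), nor EA3, with -1.45 ± 0.52 (SE, 95% interval -2.58 to -0.31, adjusted p = 0.0511), passed. The day 3 DMSO library of EA2, at 421 CPM and 4208 counts, was far above the other 3. Without the EA2 libraries of day 3 the log2 fold change in EA2 was -3.39 (adjusted p = 0.00154), and that in EA3 had an adjusted p of 0.0211. It also passed in EA3 without the EA1 libraries of day 3 (adjusted p = 0.0472), and in EA1 without all day 3 libraries (-1.44, adjusted p = 0.0441). Without a filter on low counts it passed in both, with an adjusted p of 4.4e-05 in EA1 and 9.85e-10 in EA3. Its own counts were the same in that setting, which fitted 33394 genes, and the reason for the lower values was not tested.

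Egr2 (chr10:67535475-67542188), the EGR factor of myelinating glia and hindbrain patterning, was the 1 gene of the 10 called by the test over all 3 lines for a difference in response. In EA1 it measured 3.86, 9.59, 7.75 and 3.82 CPM in DMSO and 3.37, 8.20, 13.4 and 5.55 CPM with alectinib. In EA2 the values were 0.811, 1.31, 18.0 and 3.19 CPM in DMSO and 0.199, 0.173, 0.332 and 0 CPM with alectinib. In EA3 the values were 1.00, 2.29, 5.31 and 17.3 CPM in DMSO and 0.370, 0.110, 0.186 and 0.643 CPM with alectinib. The groups interleaved in EA1 and were separate in EA2 and EA3. EA1 had a log2 fold change of 0.23 ± 0.47 (SE, 95% interval -0.78 to 1.25, adjusted p = 0.731). EA2 had -4.56 ± 0.78 (SE, 95% interval -6.24 to -2.89, adjusted p = 0.000693), and EA3 had -3.87 ± 0.66 (SE, 95% interval -5.28 to -2.47, adjusted p = 0.000622). The EA2 and EA3 alectinib libraries held 2, 1, 3 and 0 and 4, 1, 2 and 6 counts, so the size of these falls is known only within the intervals.

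The test of any difference of the alectinib effect between the 3 lines called Egr2 (adjusted p = 0.00607) and none of the other 9 genes, where 7.05% of all genes tested were called. Egr1 (adjusted p = 0.0539) and Phlda1 (adjusted p = 0.0993) came next. Between EA2 and EA1, 6.48% of all genes differed, and the log2 fold change of Egr2 differed by -4.79 ± 0.93 (SE) (95% interval of the difference -6.78 to -2.81, adjusted p = 0.00837). Egr1 differed in the same direction, by -3.19 ± 0.81 (95% interval -4.95 to -1.44, adjusted p = 0.0363). Between EA3 and EA1, where 1.91% of all genes differed, Egr2 differed by -4.10 ± 0.81 (95% interval -5.85 to -2.36, adjusted p = 0.0203). Between EA3 and EA2, where 3.07% did, none of the 10 passed, and 2 had an unadjusted p under 0.05 (as 18.8% of all genes had), Egr1 at 2.75 ± 0.81 (95% interval 0.9955 to 4.50) and Phlda1 at 1.18 ± 0.42 (95% interval 0.29 to 2.08). DESeq2 called 1 of the 10 between EA3 and EA2, and 7.06% of all genes. For Egr3 the difference of the effects in EA3 and EA1 was -1.31 ± 0.94 (95% interval -3.34 to 0.71), which spans 0. Without the EA2 libraries of day 3 the EA2 and EA1 difference was -3.78 for Egr2 (adjusted p = 0.0654) and -2.37 for Egr1 (adjusted p = 0.0837). Without the EA1 libraries of day 3 the adjusted p was 0.0973 for Egr1 between EA2 and EA1 and 0.0671 for Egr2 between EA3 and EA1. Leaving out day 3 from all lines gave the highest adjusted p over all alternatives for Egr2, at 0.132 for the 3 lines, 0.172 between EA2 and EA1 and 0.206 between EA3 and EA1, and for Egr1 between EA2 and EA1, at 0.205. Without day 5 these were 0.0661, 0.0678, 0.133 and 0.113. The 3-line call of Egr2 was lost in 2 of 12 alternatives, its calls between EA2 and EA1 and between EA3 and EA1 in 3 and 5 of 12, and that of Egr1 in 6 of 13.

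Phlda1 (chr10:111506286-111508645), which encodes a protein that binds phosphoinositides and regulates cell death, fell in EA2. It measured 59.9, 62.4, 93.5 and 73.8 CPM in DMSO and 25.1, 40.9, 15.5 and 19.0 CPM with alectinib there, with no overlap. In EA1 it ranged from 47.1 to 109 CPM in DMSO and from 51.8 to 69.1 CPM with alectinib, and in EA3 from 37.2 to 80.8 CPM and from 39.3 to 53.9 CPM. Its log2 fold change in EA2 was -1.60 ± 0.30 (SE, 95% interval -2.25 to -0.95, adjusted p = 0.00182). It was -0.27 ± 0.29 (adjusted p = 0.488) for EA1 and -0.41 ± 0.29 (adjusted p = 0.299) for EA3. An antisense gene, Gm28592, covers 33% of its exon bases, and the strand setting of the counting is not given in the sources used here.

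Ier3 (chr17:35821684-35822923), also called IEX-1, was the most abundant of the genes. DMSO libraries of EA3 held 236, 1112, 1469 and 2308 CPM and alectinib libraries 221, 258, 306 and 253 CPM. In EA1 the values were 117, 274, 344 and 719 CPM in DMSO and 110.3, 98.1, 160.4 and 138 CPM with alectinib, and in EA2 they were 140.4, 163, 326 and 263 CPM and 99.9, 147, 156 and 61.8 CPM. The groups overlapped in every line, though alectinib was below DMSO on all 4 days in each. In EA3 the log2 fold change was -1.95 ± 0.48 (SE, 95% interval -2.997 to -0.90, adjusted p = 0.00849). Those of EA1, -1.26 ± 0.46 (SE, 95% interval -2.27 to -0.26, adjusted p = 0.0511), and EA2, -0.94 ± 0.46 (SE, 95% interval -1.93 to 0.055, adjusted p = 0.163), did not pass. Without day 3 the adjusted p in EA3 was 0.068, and without day 1 that in EA1 was 0.0101.

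Plaur (chr7:24462484-24475968), the receptor that holds urokinase at the cell surface, fell in EA1, from 152, 213, 469 and 187 CPM in DMSO to 151, 124, 94.3 and 102 CPM with alectinib. These groups did not overlap, but the lowest DMSO and the highest alectinib library, 152 and 151 CPM, were close. This was a log2 fold change of -0.98 ± 0.34 (SE, 95% interval -1.72 to -0.25, adjusted p = 0.0394). EA3 libraries held 113, 174, 185 and 164 CPM in DMSO and 118, 98.1, 79.2 and 58.3 CPM with alectinib, a log2 fold change of -0.87 ± 0.34 (SE, 95% interval -1.59 to -0.15, adjusted p = 0.0622). For EA2 it was -0.42 ± 0.33 (SE, 95% interval -1.14 to 0.30, adjusted p = 0.396). The day 3 DMSO library of EA1, at 469 CPM, was the highest of all, and without the EA1 libraries of day 3 the fold change in EA1 was -0.54 (adjusted p = 0.233). It also missed the threshold without day 2 (adjusted p = 0.0848) and without day 5 (adjusted p = 0.0834), while Plaur in EA3 passed without day 1 (-1.15, adjusted p = 0.0211).

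Ier5 (chr1:155096361-155099636) and Btg2 (chr1:134075170-134079120) did not pass in any line. Ier5 ranged from 52.2 to 124 CPM in the 12 DMSO libraries and from 62.9 to 92.2 CPM in the 12 alectinib libraries, with log2 fold changes of 0.0092 ± 0.21 (SE, 95% interval -0.45 to 0.46) for EA1, -0.34 ± 0.21 (-0.79 to 0.11) for EA2 and -0.012 ± 0.21 (-0.46 to 0.44) for EA3. The sign for EA1 and EA3 flipped under other settings. In EA1 Btg2 measured 19.0, 20.4, 48.8 and 66.6 CPM in DMSO and 49.2, 48.8, 48.9 and 61.2 CPM with alectinib. In EA3 it measured 9.03, 25.5, 18.7 and 46.0 CPM in DMSO and 38.0, 39.8, 18.0 and 36.2 CPM with alectinib. Alectinib libraries of EA1 and EA3 exceeded their DMSO partners on days 1 and 2 and lay near or below them on day 5. In EA2 it stayed between 12.2 and 18.7 CPM in all 8 libraries. Fitted log2 fold changes of Btg2 were 0.62 ± 0.34 (SE, 95% interval -0.12 to 1.35) for EA1, 0.10 ± 0.35 (-0.64 to 0.85) for EA2 and 0.55 ± 0.35 (-0.20 to 1.31) for EA3.

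**Figure D3:**
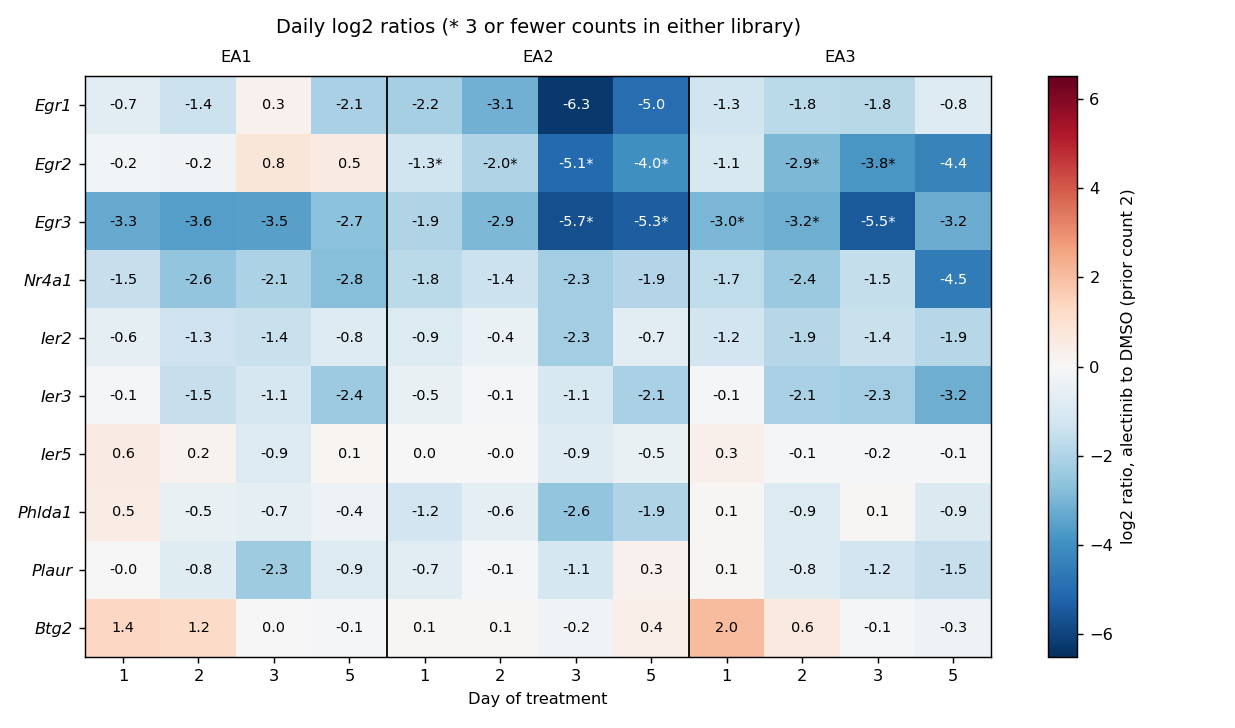
Log2 ratio of alectinib to DMSO for each gene (rows) on each day in each line (columns), with a prior count of 2; blue is lower with alectinib and an asterisk marks 3 or fewer counts in either library. The Egr3 and Nr4a1 rows are blue throughout, from -1.41 to -5.72, and Btg2 is red on day 1 in EA1 and EA3 (1.36 and 2.05).

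Levels in DMSO cultures changed over the days. Ier3 and Btg2 rose in EA1 and in EA3, where 1.86% and 5.55% of all genes rose at an adjusted p under 0.05. Per doubling of days, Ier3 rose by 1.09 ± 0.23 (SE) on the log2 scale in EA1 (adjusted p = 0.0224) and by 1.39 ± 0.26 in EA3 (adjusted p = 0.00491). Btg2 rose by 0.84 ± 0.21 in EA1 (adjusted p = 0.0384) and by 0.91 ± 0.22 in EA3 (adjusted p = 0.0176). In EA2 the slopes were 0.49 ± 0.23 for Ier3 and 0.10 ± 0.23 for Btg2 and neither passed, nor did any gene of the table (0%), with 1 of the 10 genes and 3.14% of all genes at an unadjusted p under 0.05. The difference of the slopes between lines was not tested. In alectinib cultures edgeR and DESeq2 called none of the 10 over the days, and edgeR called 0%, 0.0631% and 0.477% of all genes in EA1, EA2 and EA3 and DESeq2 0.154%, 0.512% and 2.11%. At an unadjusted p under 0.05 there were 0, 1 and 0 of the 10, beside 4.75%, 6.56% and 11.1% of all genes. The calls in DMSO need the first and last days, since without day 1 or without day 5 none of the 4 slopes passed. Few genes of any kind passed then, as EA1 then had 0 genes called of the whole table in either case and EA3 had 0 and 15. The slope of Ier3 in EA1 was 1.11 without day 1 and 1.03 without day 5, that in EA3 0.826 and 1.75, that of Btg2 in EA1 1.3 and 0.817 and that in EA3 0.71 and 0.781. Without day 2 the adjusted p was 0.146 for Ier3 and 0.174 for Btg2 in EA1 and 0.0565 for Btg2 in EA3. Without the EA1 libraries of day 3 that of Btg2 in EA1 was 0.055.

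The alectinib effect itself did not change detectably with the day for any of the 10 genes in edgeR, where 0.021%, 0% and 0.0631% of all genes were called in EA1, EA2 and EA3. At an unadjusted p under 0.05, 2, 4 and 4 of the 10 had a trend, beside 11.3%, 5.93% and 13% of all genes, and DESeq2 called 1, 0 and 2 of the 10, beside 1.72%, 0.421% and 2.45% of all genes. In EA2 the daily log2 ratio of Egr1 went from -2.17 on day 1 to -6.28 on day 3 and -4.97 on day 5. In EA3 that of Ier3 went from -0.090 on day 1 to -3.19 on day 5.

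In DMSO, 4 of the 10 genes differed between the 3 lines, where 55.6% of all 12886 genes tested did. Against EA1, the log2 difference of Egr3 was -1.92 ± 0.35 for EA2 (adjusted p = 0.000952) and -2.54 ± 0.37 for EA3 (adjusted p = 0.000252), and EA2 and EA3 did not differ beyond their spread (-1.39 to 0.16). Ier3 was highest in EA3, by 1.76 ± 0.32 over EA1 (adjusted p = 0.00125) and 2.19 ± 0.33 over EA2 (adjusted p = 0.000285). Plaur and Btg2 were lower in EA2 than in EA1, with log2 differences of -0.86 ± 0.25 (adjusted p = 0.0159) and -1.20 ± 0.34 (adjusted p = 0.0145). Both of these last calls were lost in 3 of 12 alternatives. The Plaur difference had an adjusted p of 0.0514 without day 2, 0.0603 without day 3 and 0.0652 without the EA2 libraries of day 3. That of Btg2 was 0.0524 without day 3, 0.0689 without day 5 and 0.0536 without the EA1 libraries of day 3.

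Some libraries were often at the end of the range of their group for these genes. The day 3 DMSO library of EA2 was the highest of the 4 for 9 of the 10 genes, all but Plaur, beside 31.8% of all genes. Its Egr2, Egr3 and Ier2 levels were 18.0, 22.9 and 219 CPM against at most 3.19, 8.55 and 90.5 CPM on the other days. Across all genes it correlated with the other EA2 DMSO libraries at a mean r of 0.968, against 0.973 or more for those libraries. Without both EA2 libraries of day 3, the 6 genes called in EA2 still passed, with log2 fold changes of -3.39 for Egr1, -3.57 for Egr2, -3.37 for Egr3, -1.74 for Nr4a1, -0.683 for Ier2 and -1.28 for Phlda1. In EA1 and EA3, the day 1 DMSO library was the lowest for 8 of the 10 genes, beside 25.7% and 29.5% of all genes. Among alectinib libraries, that of day 3 in EA1 was the highest for 7 of the 10 genes, beside 16.6% of all genes.

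Close relatives and partners responded unevenly. Nab2, an EGR corepressor that EGR factors themselves induce, fell in all 3 lines (EA1 -1.16 ± 0.25, EA2 -0.79 ± 0.26 and EA3 -1.60 ± 0.26, log2 fold change ± SE), while Nab1 passed in none (EA1 -0.26 ± 0.12, EA2 -0.13 ± 0.12 and EA3 0.10 ± 0.12). Of the PHLDA relatives, Phlda2 fell in all lines (EA1 -2.87 ± 0.44, EA2 -2.82 ± 0.44 and EA3 -3.21 ± 0.44), and Phlda3 rose in EA2 (0.76 ± 0.16, adjusted p of the difference between lines = 0.0197). Btg3 fell in all lines (EA1 -0.73 ± 0.20, EA2 -0.58 ± 0.20 and EA3 -0.78 ± 0.19). Btg1 fell in EA1 and EA3, with -0.57 ± 0.21 (adjusted p = 0.0499) and -1.21 ± 0.22, and measured 0.076 ± 0.21 in EA2 (difference between lines, adjusted p = 0.0452). Ier5l fell in EA2 (-1.25 ± 0.30), and Nr4a2 passed in no line (EA1 -0.25 ± 0.38, EA2 1.03 ± 0.39 and EA3 0.17 ± 0.39). Egr4 and Nr4a3 had too few counts to be tested, with at most 2 and 14 in a library.

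Of 13 other immediate-early transcription factors tested (15 listed), 6, 2 and 8 fell and 0, 2 and 0 rose in EA1, EA2 and EA3, with median log2 fold changes of -1.31, -0.125 and -1.15. Fos fell in all lines (EA1 -3.01 ± 0.37, EA2 -2.70 ± 0.45 and EA3 -3.30 ± 0.39), as did Fosl1 (EA1 -2.28 ± 0.25, EA2 -3.03 ± 0.25 and EA3 -3.52 ± 0.26), which overlaps Ccdc85b on the other strand. Klf10 fell in EA1 and EA3 and rose in EA2 (EA1 -0.85 ± 0.21, EA2 0.75 ± 0.21 and EA3 -1.15 ± 0.21, difference between lines, adjusted p = 0.00357). The 12 other immediate-early effectors went both ways, with 1, 3 and 3 lower and 3, 4 and 3 higher in EA1, EA2 and EA3, where 15.8%, 11.3% and 15.8% of all genes were lower and 18%, 13% and 16.5% higher. Errfi1, an inhibitor of ERBB receptors, fell in all lines (EA1 -1.28 ± 0.22, EA2 -1.97 ± 0.23 and EA3 -1.38 ± 0.22), whereas Ccn1 and Ccn2, matricellular proteins and known YAP targets, rose in all lines (EA1 1.56 ± 0.31, EA2 2.86 ± 0.33 and EA3 2.59 ± 0.32 for Ccn1, and EA1 1.67 ± 0.53, EA2 1.78 ± 0.61 and EA3 1.56 ± 0.54 for Ccn2).

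Of the 6 genes for serum response factor, its ternary complex factors and MRTF cofactors, 1, 2 and 2 rose and 0, 0 and 1 fell, and Mrtfb rose in all lines (EA1 0.55 ± 0.19, EA2 0.59 ± 0.19 and EA3 0.96 ± 0.19). Of 6 urokinase system genes tested, 0, 2 and 2 fell and 1, 1 and 0 rose in EA1, EA2 and EA3. Of 6 BTG and TOB genes and partners, 2, 1 and 2 fell. The shares over all genes given above, 15.8%, 11.3% and 15.8% lower and 18%, 13% and 16.5% higher, come to about 1 of 6 genes each way.

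**Figure D4:**
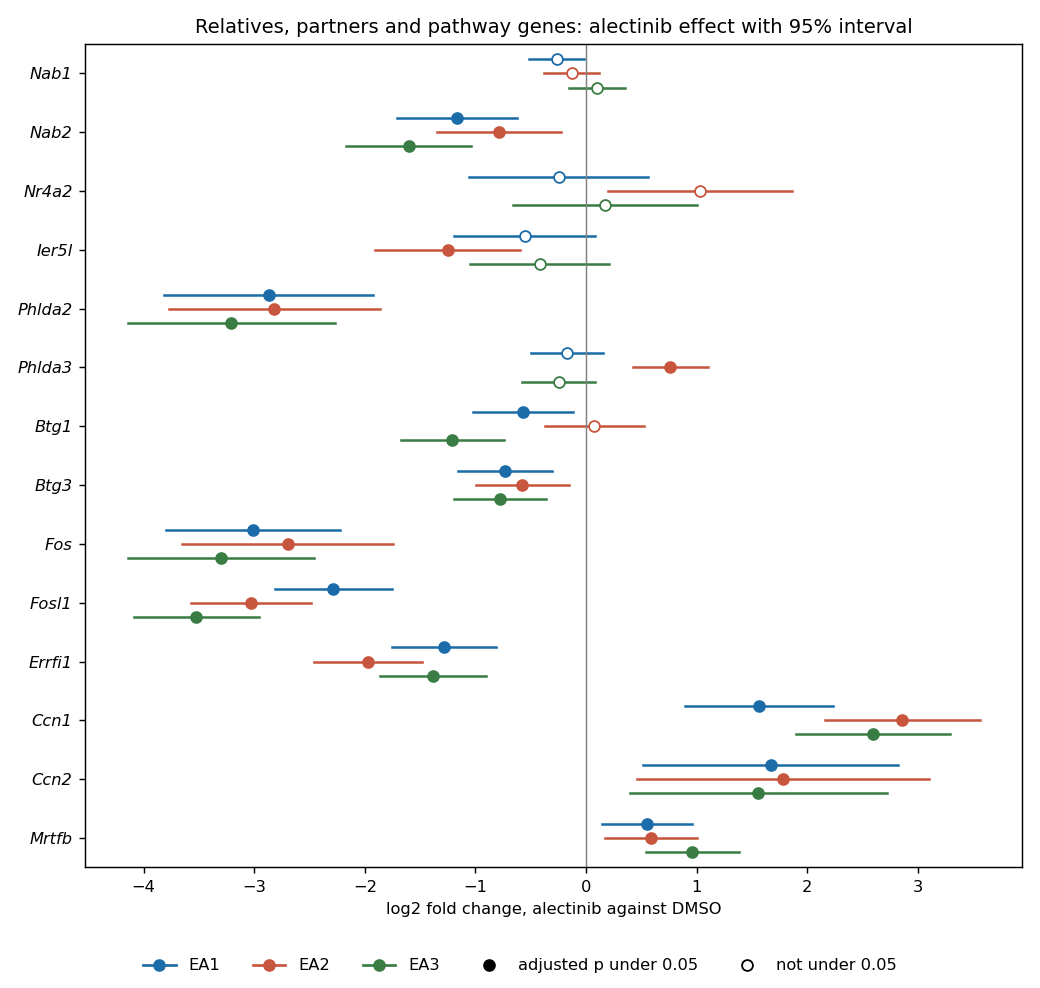
Log2 fold change of alectinib against DMSO with its 95% interval for relatives, partners and pathway genes, by line; filled points had an adjusted p under 0.05. Fos, Fosl1 and Phlda2 lie between -2.28 and -3.52, and Ccn1 and Ccn2 lie to the right of 0, between 1.56 and 2.86.

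The genes most like Egr1 in the pattern of the 12 daily log2 ratios, among 9926 genes with an average log2 CPM of at least 3, were Fam43a (Pearson's r = 0.956), Rnase4 (0.941), Cp (0.941), Mfsd13a (0.933) and Fgf1 (0.928). These r values are a description over 12 line and day pairs that share libraries. They compare shape and not direction, since the log2 fold change of Rnase4 was above 0 in all lines, at 2.06, 0.449 and 1.7. Within the 10 genes, Phlda1 (0.78), Egr2 (0.63) and Egr3 (0.586) were closest to Egr1, and the others were Ier5 (0.416), Btg2 (0.271), Ier2 (0.1), Ier3 (-0.00137), Nr4a1 (-0.163) and, lowest, Plaur (-0.352).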

How the data were processed

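RNA was taken from cultured cells, and libraries were made with a stranded poly(A) kit. Per the study's methods, the authors checked reads with FastQC, trimmed adapters with bbduk, mapped them to mm10 with STAR and deposited STAR's counts per gene; the authors' own CPM came from edgeR. Annotation release and strand setting are not given in the sources used here. From the deposited counts, 24 rows that spreadsheet software had turned into dates (0.1287 to 0.2014% of counts) were left out. Genes passing filterByExpr (14264) were scaled by TMM and fitted in edgeR 4.0.16 (R 4.3.3) with quasi-likelihood F tests, Benjamini-Hochberg adjusted over all genes. CPM per library used the total over the genes tested times the TMM factor. CPM of the day 7 pair used the library total alone. Log2 fold changes are edgeR's, and standard errors follow from the F statistics. Slopes used 6 groups, and DMSO levels a separate fit (12886 genes). DESeq2 1.42.0 was an alternative. Deviations from the group mean correlated, between both libraries made from a line on a day, at -0.3 to 0.549, so the day was kept as a block by design, not because libraries were shown to be paired.

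The members and lists were chosen with earlier results of these data known. Named were all 10 members, listed genes past the threshold in all 3 lines (less any result not reported here), relatives of members, EGR corepressors and the 5 genes most like Egr1. Counting intervals and floors cover counting error only. Gene positions are from GENCODE on mm10. A genotype that differs between the lines is not reported here and cannot be told apart from the line.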

Additional observations from a re-analysis of the deposited data

Results flagged for a closer look

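In 60 groups of 4 libraries (10 genes, 3 lines, 2 treatments), 11 single libraries lay apart from the other 3, measured by the gap to the nearest library as a share of the group's range, above Dixon's 95% critical value. Chance gives about 1 in 20 groups, and 7.16% of the gene and group pairs over all 14264 genes had such a library. Of the 11, 10 were day 3 libraries and 5 the day 3 DMSO library of EA2, which lay apart for 2.13% of all genes and in which the share of the range was 0.9129 for Egr1, 0.8617 for Egr2, 0.8785 for Egr3, 0.922 for Ier2 and 0.8387 for Ier5. On the same day the DMSO library of EA1 was high for Ier5 (0.837) and that of EA3 for Egr3 (0.8367). Among alectinib libraries of day 3, Egr1 was high in EA1 (0.8291), and in EA3 Nr4a1 was high (0.9213) and Btg2 low (0.8356). On day 5 Btg2 was high in alectinib-treated EA1 (0.9654), at 61.2 CPM against 48.8 to 49.2 CPM.

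The alectinib effect differed between lines for Egr2 (adjusted p = 0.00607 over 3 lines, 0.00837 between EA2 and EA1 and 0.0203 between EA3 and EA1) and for Egr1 between EA2 and EA1 (adjusted p = 0.0363), in the model described above (edgeR, quasi-likelihood). These calls were lost in 2 of 12, 3 of 12, 5 of 12 and 6 of 13 alternatives, with adjusted p up to 0.132, 0.172, 0.206 and 0.205.

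In the pair of libraries labelled EA3 at day 7, all 10 genes were lower with alectinib, as were 48.2% of all genes. Of the comparisons above, only the alternative with all 26 libraries used this pair. Egr1 measured 218 CPM in DMSO and 12.5 CPM with alectinib, Egr3 51.6 and 0.261 CPM, and Btg2 19.1 and 18.3 CPM. Unlike the other CPM values, those of this pair used the library total without a TMM factor. There is 1 library per treatment, so the difference has no replicate check, and both libraries correlated more with EA2 than with EA3.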

How the results depend on the processing

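The counts of genes called lower in EA1, EA2 and EA3 stayed at 3 to 6, 4 to 7 and 3 to 7 around 4, 6 and 5 under each alternative, and at 3 to 5, 6 and 4 to 7 with libraries left out. The share of all genes called lower ranged over these settings from 6.49% to 17.4%, 5.73% to 16% and 6.68% to 17.5%. With at least 10 counts in every library EA3 had 3, since Egr2 and Egr3 were then not tested. Of the single alectinib effects over all alternatives, 397 kept their direction and side of the threshold, 22 newly passed, 7 no longer passed and 16 changed sign; of other called values, 131 kept their side and 34 no longer passed. The sign changes were near 0: Ier5 in EA1 (-0.011 without a filter, -0.0666 without the replicate block, -0.0304 with all 26 libraries, and -0.0107 to -0.14 with libraries left out, namely -0.14, -0.105, -0.0164 and -0.0107), Ier5 in EA3 (0.00914 in DESeq2, 0.00912 with its size factors, 0.135 with library size alone, 0.0371 with at least 10 counts, 0.0127 with each line alone, and 0.0427, 0.0554 and 0.0167 with libraries left out) and Btg2 in EA2 (-0.0103 without day 5). Library size alone moved the median over all genes to 0.156 in EA1 and 0.183 in EA3 and the share of higher calls to 64.6% and 64.8%, from 53.2% and 51%.

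Of the 10 genes, those whose effect differed between the 3 lines numbered 1 (7.05% of all genes), but 3 in DESeq2 (13.7%), 2 with library size alone (7.39%), 4 without a filter (8.08%), 0 with at least 10 counts (6.92%), 2 without the replicate block (5.66%), and 0 to 2 with libraries left out (1.47% to 5.51%). The shares over all genes also moved, so these counts are no result about the 10 genes. Between EA2 and EA1 they numbered 2 (6.48%), but 1 with at least 10 counts (6.96%), 1 with all 26 libraries (4.16%) and 0 to 2 with libraries left out (1.2% to 7.3%). Between EA3 and EA1 they numbered 1 (1.91%), but 0 with at least 10 counts (1.45%), 0 without the replicate block (1.35%) and 0 to 1 with libraries left out (0.125% to 1.41%). Between EA3 and EA2 DESeq2 called 1 (7.06%) and no filter 3 (4.26%). For the trend of the effect, DESeq2 called 1 in EA1 (1.72%) and 2 in EA3 (2.45%), no filter 2 (0.234%) and at least 10 counts 1 (0.508%) in EA3. DMSO slopes numbered 0 to 2 in EA1 (0% to 11.1% of all genes) and 0 to 5 in EA3 (0% to 20.4%) with libraries left out, 4 (DESeq2, 17.3% of all genes) and 5 (no filter, 5.94%) in EA3, against 2 (11.3%), and 1 in EA2 with no filter (0.159%). Alectinib slopes numbered 2 in EA2 (0.59%) and 1 in EA3 (2.03%) with no filter, and 0 to 1 in EA3 with a day left out (0% to 3.95%). DMSO levels differed between lines for 2 to 4 genes with libraries left out (38.5% to 54.5%). The cause was not tested. Leaving out the day 3 pair of EA1 or of EA2 was chosen after seeing the data. Without the replicate block, Ier3 in EA1 (adjusted p = 0.0257) and Plaur in EA3 (0.0446) passed and the EA3 and EA1 difference of Egr2 (0.0835) did not. Libraries of a day share the time of treatment, but they did not deviate together in every line. Depth limits Egr2 and Egr3, at 0 to 18 counts in alectinib-treated EA2 and EA3.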
